A study of Mus musculus with 12 samples.

Results

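Immune checkpoint receptors and their ligands were followed across 12 mouse tumours, as 10 genes: Pdcd1 (the receptor PD-1), Ctla4, Lag3, Havcr2 (TIM-3) and Tigit, the ligands Cd274 (PD-L1), Pdcd1lg2 (PD-L2) and Lgals9 (galectin-9), and the pair Cd47 and Sirpa. Members were every probe set of the deposited array table that the platform annotation gives to one of these symbols, or an alias of it, alone. The rule found 15 probe sets of 9 genes among 45101 probe sets in all: 5 for Cd47, 3 for Sirpa and 1 for each of the other measured genes. Tigit had no probe set named to it and is not analysed here.

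The tumours were grown from MC38, a C57BL/6 mouse colon carcinoma line, placed in the cecum of C57BL/6 mice, and total RNA of each tumour was hybridised to an Affymetrix array. Every line carried a doxycycline-inducible hairpin against Tdo2, the tryptophan-degrading enzyme tryptophan 2,3-dioxygenase, also in the groups that were given no doxycycline. The 4 groups of 3 tumours were APC-KO cells with doxycycline (Dox), APC-KO cells with no Dox, APC-WT cells with Dox, and APC-WT cells with no Dox, where APC-KO means that the tumour suppressor gene Apc had been deleted from the injected cells and APC-WT that it was intact. The sources used here do not state mouse age or sex, the length of treatment, whether a line was 1 clone, or whether each tumour had its own mouse. The p-values therefore measure the spread among these 12 arrays, some of which may be technical. Tumours given Dox without the hairpin are not analysed here, so an effect of the antibiotic and an effect of the knockdown cannot be told apart.

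Checkpoint receptors are inhibitory proteins of T cells and other lymphocytes: PD-1 binds PD-L1 and PD-L2, CTLA-4 competes with the costimulator CD28 for CD80 and CD86, LAG-3 binds MHC class II, and TIM-3 has galectin-9 among its reported ligands. PD-L1 is made by tumour and myeloid cells and is induced by interferon-gamma, which T cells and NK cells release. CD47 on nearly all cells binds SIRPA on macrophages and holds back phagocytosis. The arrays measured RNA of the injected cells together with that of the host's immune and stromal cells, and in these bulk samples fewer cells of a type and less RNA per cell cannot be told apart.

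Values are log2 expression values, on which 1 unit is a doubling. A floor of 5.55, the median over all probe sets, was used to mark low values; it is not a measured background. By its brightest probe set over all arrays, 6 genes lay at or above the floor (Cd274, Lag3, Havcr2, Cd47, Sirpa and Lgals9). Pdcd1 lay just under it on average, reaching it in 3 of 3 APC-WT tumours with no Dox and 2 of 3 with Dox, and Pdcd1lg2 and Ctla4 lay under it on all 12 arrays. Differences were tested with limma over all 45037 non-control probe sets, with Benjamini-Hochberg adjustment and a threshold of 0.05 on the adjusted p. Array medians ran between 5.528 and 5.575 and replicates correlated at 0.995 to 0.998. The labelled tissue showed its host cells: macrophage markers averaged 10.79 to 10.80 in APC-KO Dox, 10.88 to 10.94 in APC-KO no Dox, 10.78 to 10.87 in APC-WT Dox and 10.76 to 10.88 in APC-WT no Dox tumours.

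Of the 4 measured checkpoint receptors of T cells, Pdcd1 and Lag3 were lower in APC-KO tumours both without and with Dox, Ctla4 passed without Dox, and Havcr2 passed in neither comparison. Without Dox, 5 of the 15 member probe sets, from 4 genes, passed the test and all 5 fell in APC-KO tumours, namely those of Pdcd1, Lag3 and Ctla4 and 2 of the 5 for Cd47. Of all probe sets 12.3% passed in either direction and 6.02% fell. With Dox, 4 of the 15 passed and fell, those of Pdcd1, Lag3, Cd274 and 1 dim Cd47 probe set. Of all probe sets 9.51% passed in either direction with Dox and 4.39% fell. Of the 15 member probe sets, 10 averaged at or above the floor. Among all probe sets at that level, 20.4% passed without Dox and 9.69% fell, and 16.2% and 7.36% did so with Dox. Those of Pdcd1 and Ctla4 and the dim Cd47 one averaged under it. Fitted at or above the floor only, 3 member probe sets passed without Dox and 2 with Dox. The median difference of the 15 was -0.294 without Dox, against 0.002 over all probe sets, and -0.099 with Dox, against -0.018. Both genotype comparisons and both Dox comparisons share groups with each other, so their values are given side by side.

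**Figure D1:**
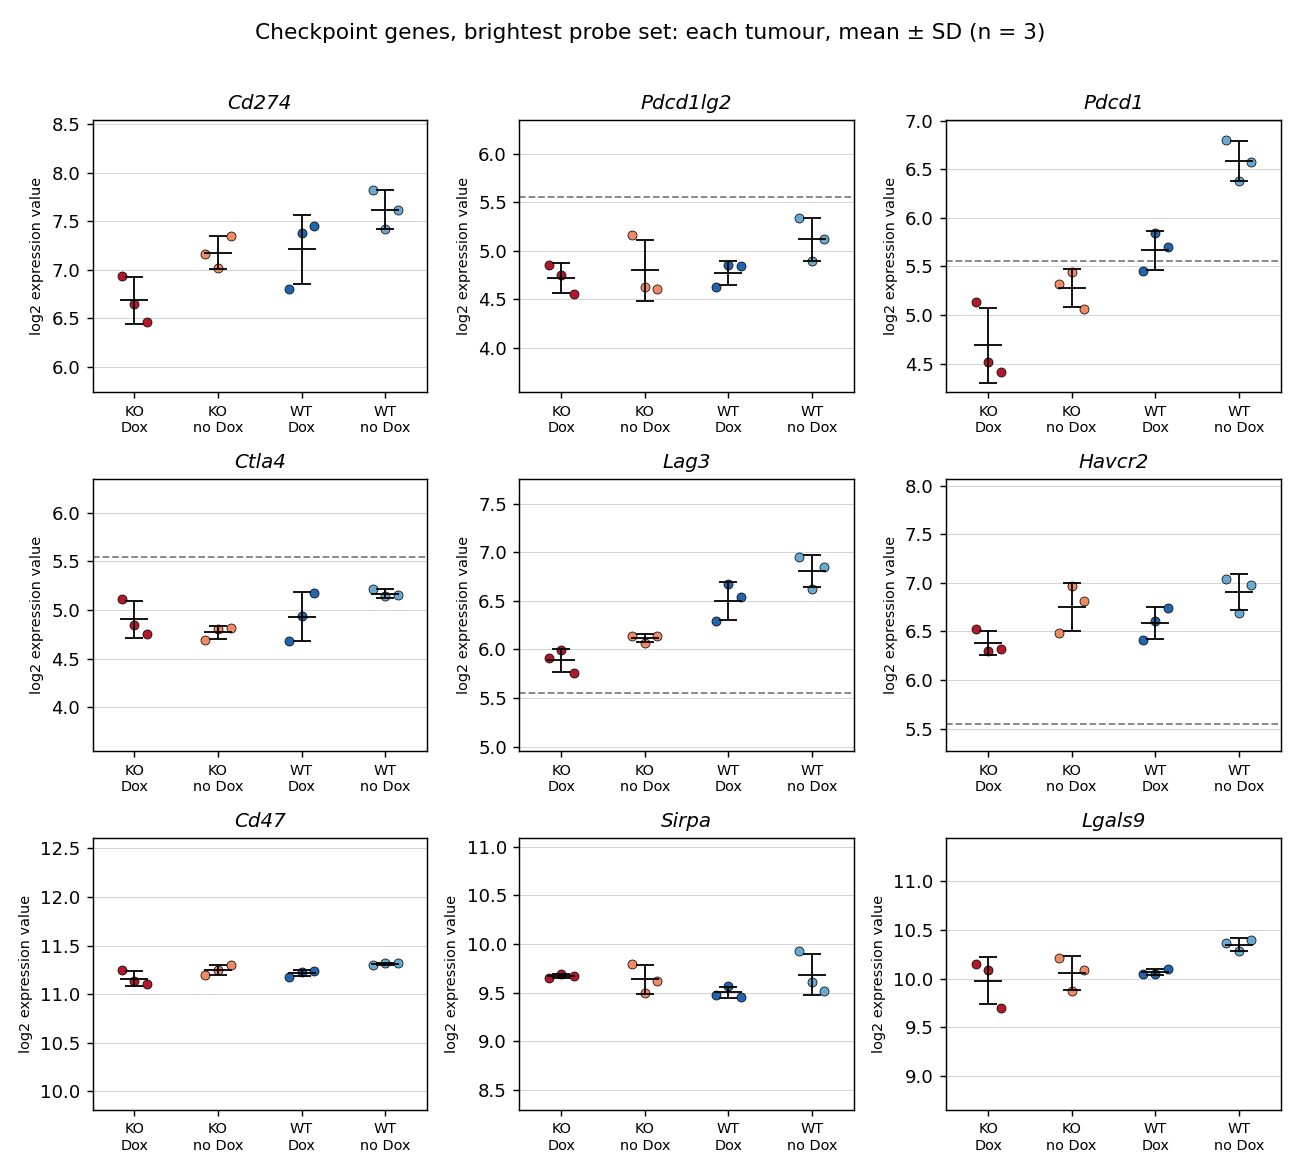
Log2 expression value (y axis, 2.8 units tall in each panel) of the 9 measured checkpoint genes by their brightest probe set in APC-KO Dox, APC-KO no Dox, APC-WT Dox and APC-WT no Dox tumours; points are tumours, bars the mean ± SD (n = 3), and the dashed line, where in range, the floor of 5.55. Pdcd1 separates the genotypes, with 4.41 to 5.44 in all APC-KO tumours and 5.45 to 6.80 in all APC-WT tumours, while Cd47 and Sirpa differ little between groups.

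Pdcd1, the PD-1 receptor, had the largest genotype differences of the 15 probe sets. With Dox it had 5.13, 4.52 and 4.41 in APC-KO tumours, against 5.45, 5.84 and 5.70 in APC-WT tumours. Without Dox it had 5.32, 5.44 and 5.06 in APC-KO tumours, against 6.80, 6.38 and 6.57 in APC-WT tumours. Every APC-KO tumour was below every APC-WT tumour, and the untreated APC-WT tumours stood above all the others. Pdcd1 fell by 1.31 ± 0.17 (SE) without Dox, with a 95% interval of -1.67 to -0.95 and a limma adjusted p of 7.26e-05, to 40.3% of the APC-WT level. Because all 3 untreated APC-KO tumours lay under the floor, the fold is also given against the floor. The untreated APC-WT mean lay 2.04-fold above the floor, a point value with no interval. With Dox it fell by 0.98 ± 0.17 (SE), with a limma adjusted p of 0.00125, to 50.8% of the APC-WT level by the values as measured. There all 3 APC-KO tumours and 1 of 3 APC-WT tumours lay under the floor, and the APC-WT mean lay 1.08-fold above it.

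Lag3, the MHC class II binding receptor LAG-3, followed the same order with a smaller difference. It had 5.91, 5.99 and 5.76 in APC-KO tumours with Dox, against 6.29, 6.67 and 6.54 in APC-WT tumours with Dox. Without Dox the values were 6.14, 6.07 and 6.14 in APC-KO tumours, against 6.95, 6.62 and 6.85 in APC-WT tumours. The genotypes did not overlap in either pair of groups. Lag3 fell by 0.69 ± 0.11 (SE) without Dox (limma adjusted p = 0.000521) and by 0.61 ± 0.11 (SE) with Dox (limma adjusted p = 0.0016), to 62.2% and 65.4% of the APC-WT level. The calls of Pdcd1 and of Lag3 held in both comparisons under every alternative that gave them a value.

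Ctla4, which outcompetes CD28 for its ligands, was dim throughout. It had 4.69, 4.80 and 4.82 in untreated APC-KO tumours, against 5.22, 5.14 and 5.15 in untreated APC-WT tumours. These groups did not overlap, and Ctla4 fell by 0.40 ± 0.12 (SE), with a limma adjusted p of 0.0427. With Dox the means were 4.90 ± 0.18 in APC-KO and 4.93 ± 0.25 in APC-WT tumours (SD, n = 3 each), a difference of -0.03 ± 0.12 (SE, limma adjusted p = 0.931). The call was lost in 9 of 17 alternatives: without any 1 of the 6 tumours compared, without APC-WT Dox tumour 2 or APC-KO Dox tumour 2, and with the replicate number as a block, at adjusted p between 0.0536 and 0.132.

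Havcr2, or TIM-3, a receptor found on macrophages and dendritic cells as well as T cells, did not pass in any comparison. It had 6.52, 6.30 and 6.32 in APC-KO tumours with Dox, against 6.41, 6.61 and 6.74 in APC-WT tumours with Dox. Without Dox it had 6.48, 6.97 and 6.81 in APC-KO tumours, against 7.04, 6.69 and 6.98 in APC-WT tumours. The genotypes overlapped both times. The difference was -0.15 without Dox (95% interval -0.42 to 0.12) and -0.20 with Dox (95% interval -0.47 to 0.07).

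Most markers of T cells were lower in APC-KO tumours, as Pdcd1 and Lag3 were. Of 12 T cell markers, 10 had a probe set, and 8 of these averaged at or above the floor. Without Dox 8 of the 10 fell in APC-KO tumours and none rose, with a median difference of -0.70, against 12.3% of all probe sets that passed. With Dox 5 of the 10 fell and none rose, with a median of -0.34, against 9.51%. At or above the floor, 20.4% of all probe sets passed without Dox and 16.2% with Dox. Cd8b1, a chain of the CD8 coreceptor, fell by 1.05 ± 0.18 (SE) without Dox (limma adjusted p = 0.00114) and by 0.88 ± 0.18 (SE) with Dox (limma adjusted p = 0.00504). Cd3g, a chain of the T cell receptor complex, fell by 0.97 ± 0.22 (SE) without Dox and by 1.04 ± 0.22 (SE) with Dox (limma adjusted p = 0.0072 and 0.00526). Cd4, the coreceptor of helper T cells, stayed between 5.97 and 6.11 on all 12 arrays.

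The mean of the 10 T cell markers was 6.44, 5.92 and 6.03 in APC-KO tumours with Dox, against 6.42, 6.69 and 6.68 in APC-WT tumours with Dox. Without Dox it was 6.26, 6.29 and 6.31 in APC-KO tumours, against 6.88, 6.73 and 7.07 in APC-WT tumours. The genotypes did not overlap without Dox, and APC-KO Dox tumour 1 reached the APC-WT range with Dox. This marker mean was then subtracted from each receptor array by array; the result is a description, since no level of one probe set can be set against that of another, and only its shift between groups can be read.

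Lag3 minus the marker mean overlapped between the genotypes, with mean shifts of -0.08 without Dox and -0.14 with Dox. Pdcd1 minus the marker mean did not overlap: it ran between -1.62 and -1.31 in APC-KO Dox, against -0.98 to -0.85 in APC-WT Dox tumours. Without Dox it ran between -1.25 and -0.86 in APC-KO, against -0.51 to -0.07 in APC-WT tumours. The mean shift of Pdcd1 was thus -0.51 with Dox and -0.70 without. Havcr2 minus the marker mean was higher in APC-KO tumours, by 0.26 with Dox and 0.46 without, with no overlap. Because the mean itself fell in APC-KO tumours, a gene that fell less comes out higher. Cd47, Sirpa and Lgals9 did so too, with no overlap in either pair. Minus the macrophage marker mean, Havcr2 overlapped between the genotypes, with shifts of -0.17 with Dox and -0.26 without. Ctla4, under the floor throughout, was also higher in APC-KO tumours after subtraction of the T cell marker mean, the opposite of its own difference. It ran between -1.33 and -1.07 in APC-KO Dox against -1.75 to -1.5 in APC-WT Dox tumours, and between -1.56 and -1.49 in APC-KO no Dox against -1.93 to -1.59 in APC-WT no Dox tumours, shifts of 0.44 and 0.21 with no overlap. The mean includes markers that moved little between groups, such as Cd4, so it fell less than Cd3g or Cd8b1. With Dox the fall of Pdcd1 lay between those of Cd8b1 and Cd3g, and without Dox it exceeded both. A shift against the mean thus depends on the markers it holds, and these shifts were not tested. The part of T cell content in the fall of the receptors was not tested beyond these values.

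**Figure D2:**
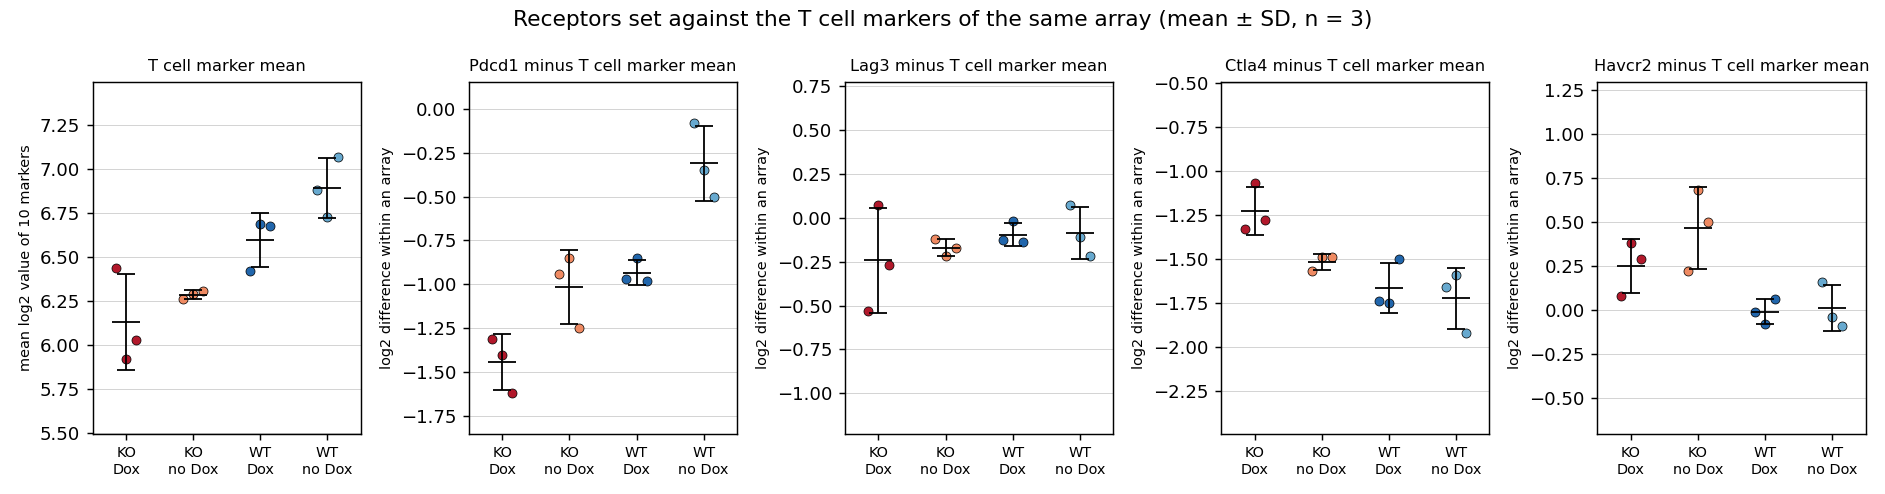
Mean log2 value of 10 T cell markers, and the log2 value of Pdcd1, Lag3, Ctla4 and Havcr2 minus that mean on the same array (y axes, 2 units tall), by group; points are tumours and bars the mean ± SD (n = 3). After the subtraction Pdcd1 remains lower in APC-KO tumours, Lag3 overlaps between the genotypes, and Ctla4 and Havcr2 are higher in APC-KO tumours. The marker mean is itself lower on average in APC-KO tumours and holds markers that moved little, such as Cd4.

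Other values that moved with genotype are array controls. The mean value of the 18S ribosomal RNA control probe sets was 9.475 to 9.758 in untreated APC-KO tumours, against 9.201 to 9.327 in untreated APC-WT tumours. The 3′ minus 5′ difference of the Gapdh control probe sets, a sign of RNA or labelling quality, was -0.184 to -0.154 in untreated APC-KO tumours, against -0.116 to -0.092 in untreated APC-WT tumours. With Dox, 18S was 8.959 to 9.237 in APC-KO and 9.058 to 9.328 in APC-WT tumours, which overlap, and the Gapdh difference was -0.156 to -0.111 in APC-KO and -0.188 to -0.158 in APC-WT tumours, which do not overlap and run the other way from the untreated pair. The 3′ minus 5′ difference of the beta-actin control was 0.193 to 0.275 in APC-KO and 0.167 to 0.190 in APC-WT tumours with Dox, which do not overlap, and 0.174 to 0.219 in APC-KO and 0.184 to 0.254 in APC-WT tumours without Dox, which overlap. Their part in the receptor differences was not tested.

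Cd274, which encodes the ligand PD-L1, was lowest in APC-KO tumours given Dox. There it had 6.94, 6.65 and 6.46, against 6.80, 7.38 and 7.45 in APC-WT tumours with Dox. Untreated APC-KO tumours had 7.16, 7.02 and 7.35, against 7.82, 7.42 and 7.61 in untreated APC-WT tumours. The groups overlapped with Dox, through APC-WT Dox tumour 1, and did not overlap without it. Cd274 fell by 0.53 ± 0.16 (SE) with Dox, with a limma adjusted p of 0.0475, to 69.4% of the APC-WT level. Without Dox the difference of -0.44 ± 0.16 (SE) did not pass (limma adjusted p = 0.0885).

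Both Cd274 results lay close to the threshold. With Dox the call was lost in 10 of 19 alternatives, at adjusted p between 0.0522 and 0.221: without the variance trend, with only the groups compared, with the replicate block, and without APC-KO Dox tumour 2 or 3, APC-KO no Dox tumour 1 or 3, APC-WT Dox tumour 2 or 3, or APC-WT no Dox tumour 3. Without Dox it passed when only the groups compared were fitted (adjusted p = 0.0406) and without APC-WT Dox tumour 1 (adjusted p = 0.0341).

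Pdcd1lg2, the second PD-1 ligand, was dim and did not pass in any comparison. It had 4.85, 4.75 and 4.55 in APC-KO tumours with Dox, against 4.63, 4.85 and 4.84 in APC-WT tumours with Dox. Without Dox it had 5.16, 4.63 and 4.61 in APC-KO tumours, against 5.34, 4.89 and 5.12 in APC-WT tumours. The genotypes overlapped in both pairs, through APC-KO no Dox tumour 1 in the untreated one. The difference without Dox was -0.32 ± 0.15 (SE, limma adjusted p = 0.193), and without that tumour it was -0.50 with an adjusted p of 0.0305.

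Lgals9, which encodes galectin-9, had 10.21, 9.87 and 10.09 in untreated APC-KO tumours, against 10.37, 10.28 and 10.40 in untreated APC-WT tumours. These groups did not overlap, and the difference of -0.29 ± 0.10 (SE) did not pass (limma adjusted p = 0.0669). It passed without APC-KO no Dox tumour 1 (-0.37, adjusted p = 0.04) and without APC-KO Dox tumour 3 (adjusted p = 0.0159). With Dox the values were 10.15, 10.09 and 9.70 in APC-KO tumours, against 10.05, 10.05 and 10.10 in APC-WT tumours, and these overlapped.

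Of 17 genes of the interferon-gamma pathway and regulators of PD-L1, 15 had a probe set. Without Dox 5 fell, 1 rose and 9 did not pass in APC-KO tumours, against 12.3% of all probe sets that passed. With Dox 3 fell and 12 did not pass, against 9.51%. Of the 15 genes, 14 averaged at or above the floor. Among all probe sets at or above the floor, 20.4% passed without Dox and 16.2% with Dox. The medians were -0.11 and -0.07. Ifng, the gene of interferon-gamma itself, was under the floor on all arrays and fell by 0.99 ± 0.16 (SE) without Dox and by 1.00 ± 0.16 (SE) with Dox (limma adjusted p = 0.000753 and 0.000796). Nlrc5, the transactivator of MHC class I genes, fell by 0.70 ± 0.11 and 0.61 ± 0.11 (SE, limma adjusted p = 0.00054 and 0.002). Irf1, a transcription factor that activates Cd274 after interferon-gamma, fell by 0.34 ± 0.08 and 0.51 ± 0.08 (SE, limma adjusted p = 0.0106 and 0.000669). Irf9, a subunit of the interferon-activated complex ISGF3, fell by 0.67 ± 0.13 (SE) without Dox (limma adjusted p = 0.00216). The gene that rose was Ifngr2, a chain of the interferon-gamma receptor, by 0.47 ± 0.06 (SE) without Dox (limma adjusted p = 0.000113). The remaining gene that fell was Jak2, a kinase of that receptor. Ifngr2 and Jak2 were named after their values were seen.

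The promoters of 2 ligands and of Pdcd1 are shown because interferon regulatory factors such as IRF1 bind a short core, searched for here in the RefSeq windows of mouse build GRCm38.p6 from 250 bases before to 50 bases after the start site. Capitals mark matches to that core, AANNGAAA on either strand; on the other strand it reads TTTCNNTT. Windows were held for 8 of the 10 genes, and 4 of these, Cd274, Pdcd1lg2, Pdcd1 and Lgals9, hold the core, as do 23.9% of all 32851 windows. The longer interferon-stimulated core, GAAA, any 2 bases and GAAA again, which contains the shorter one, was found in Lgals9 alone among the members, against 3.44% of all windows. The gamma-activated core TTCNNNGAA was found in none of the members' windows, against 8.3% of all windows. A match is a description of the letters in these windows.
Cd274 promoter, chr19:29367188-29367487, plus strand: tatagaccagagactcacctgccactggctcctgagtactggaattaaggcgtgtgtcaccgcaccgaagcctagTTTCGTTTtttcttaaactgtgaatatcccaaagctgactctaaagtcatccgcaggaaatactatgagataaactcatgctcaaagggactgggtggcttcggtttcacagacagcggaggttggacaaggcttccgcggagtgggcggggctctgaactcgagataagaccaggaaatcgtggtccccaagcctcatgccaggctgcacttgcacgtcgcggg
Pdcd1 promoter, chr1:94052504-94052803, minus strand: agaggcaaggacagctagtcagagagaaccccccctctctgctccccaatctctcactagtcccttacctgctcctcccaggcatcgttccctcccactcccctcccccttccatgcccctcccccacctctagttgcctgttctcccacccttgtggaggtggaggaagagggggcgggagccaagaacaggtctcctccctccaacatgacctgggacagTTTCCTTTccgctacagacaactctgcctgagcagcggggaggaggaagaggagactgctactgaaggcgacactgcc
Lgals9 promoter, chr11:78984875-78985174, minus strand: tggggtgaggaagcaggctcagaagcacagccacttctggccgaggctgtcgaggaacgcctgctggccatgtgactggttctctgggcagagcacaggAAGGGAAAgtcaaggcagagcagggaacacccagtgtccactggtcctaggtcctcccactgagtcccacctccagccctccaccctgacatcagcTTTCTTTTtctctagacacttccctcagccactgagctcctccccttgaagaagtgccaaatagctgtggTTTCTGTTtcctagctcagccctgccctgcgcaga

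In these windows the leftmost base of the match lay 175 bases before the start site in Cd274 and 28 bases before it in Pdcd1. Lgals9 holds 3 matches, beginning 151 and 55 bases before the start site and 15 bases after it. The members with the core include Pdcd1, which fell in both genotype comparisons, Cd274, which fell in 1, and Lgals9 and Pdcd1lg2, which passed in none.

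Cd274 ran closely with other interferon-inducible genes across the tumours. The 3 genes most like it over the 12 arrays, of 11069 compared, were Tap2, a peptide transporter of MHC class I loading (Pearson r = 0.982), Ubd, a ubiquitin-like modifier induced by interferon-gamma (r = 0.980), and Gbp7, a guanylate-binding protein (r = 0.972). Within groups, after the group means were removed, r was 0.963, 0.942 and 0.932. All 4 were lower in APC-WT Dox tumour 1 than in the other tumours of its group. Tap2 had 9.08, 8.89 and 8.87 in APC-KO tumours with Dox, against 9.09, 9.41 and 9.36 in APC-WT tumours with Dox, and fell by 0.35 ± 0.09 (SE, limma adjusted p = 0.0219). Gbp7 fell by 0.40 ± 0.12 (SE) in both genotype comparisons (limma adjusted p = 0.0332 without Dox and 0.0381 with Dox). Tap2 did not pass without Dox (-0.22 ± 0.09, SE, limma adjusted p = 0.147). Ubd passed in neither, at -0.46 ± 0.17 without Dox and -0.48 ± 0.17 with Dox (SE, limma adjusted p = 0.0937 and 0.0994). These points share arrays and group differences, so the correlations are descriptions.

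**Figure D3:**
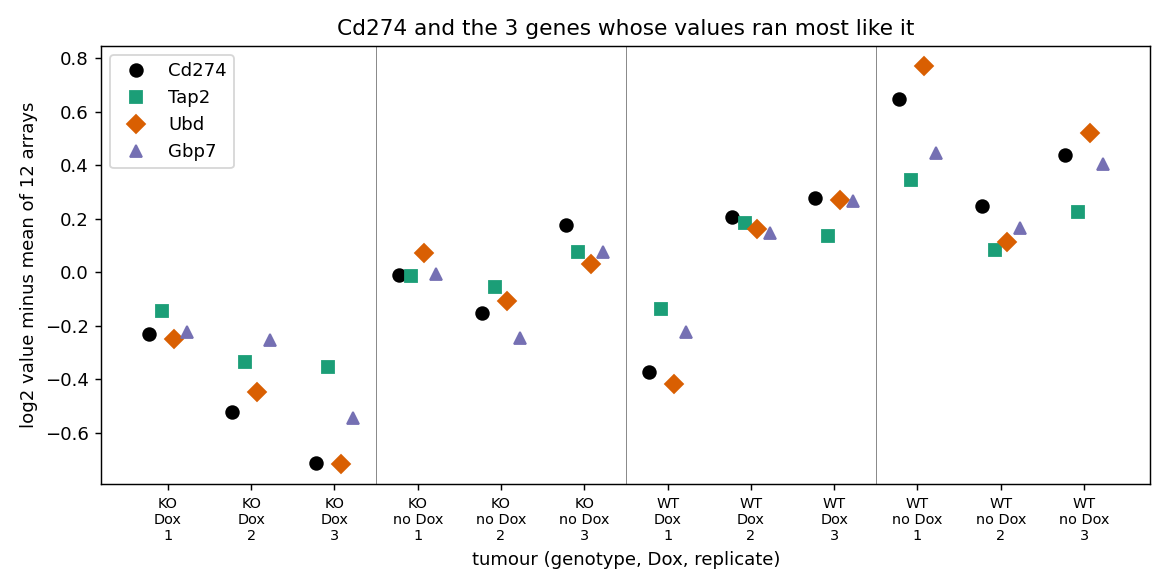
Log2 value minus the gene's mean over 12 arrays (y axis) for Cd274, Tap2, Ubd and Gbp7 in each tumour (x axis, by genotype, Dox and replicate); each point is 1 array. The 4 genes rise and fall together, over a wider range in Ubd and Cd274 than in Tap2. They lie under their means in APC-KO Dox tumours and in APC-WT Dox tumour 1 and above them in APC-WT no Dox tumours.

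CD47 gave a different answer by probe set. Its brightest probe set had 11.25, 11.13 and 11.10 in APC-KO tumours with Dox, against 11.18, 11.23 and 11.24 in APC-WT tumours with Dox. Without Dox it had 11.20, 11.25 and 11.30 in APC-KO tumours, against 11.30, 11.32 and 11.32 in APC-WT tumours. The differences of -0.05 (95% interval -0.16 to 0.05) with Dox and -0.06 (95% interval -0.17 to 0.04) without Dox did not pass.

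The second and the third brightest Cd47 probe sets ran together over the 12 arrays (r = 0.98) and less closely with the brightest (r = 0.53 and 0.57). The third had 10.41, 10.22 and 10.44 in untreated APC-KO tumours, against 10.84, 10.72 and 10.73 in untreated APC-WT tumours, with no overlap. It fell by 0.41 ± 0.06 (SE, limma adjusted p = 0.000449), and the second fell by 0.37 ± 0.07 (SE, limma adjusted p = 0.00174), to 75.4% and 77.2% of the APC-WT level. With Dox the third had 10.46, 10.41 and 10.34 in APC-KO tumours, against 10.56, 10.65 and 10.56 in APC-WT tumours, again with no overlap. That difference of -0.18 ± 0.06 (SE) did not pass (limma adjusted p = 0.0853). It passed with array weights (0.0278), with only the groups compared (0.0442) and without APC-KO no Dox tumour 2 (0.0428).

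On every array the 2 dimmest Cd47 probe sets were under the floor. The dimmest had 3.48, 3.29 and 3.38 in APC-KO tumours with Dox, against 3.84, 3.81 and 3.64 in APC-WT tumours with Dox, and fell by 0.38 ± 0.10 (SE, limma adjusted p = 0.0288). Without APC-WT Dox tumour 1 or 2, or APC-KO Dox tumour 2 or 3, it did not pass, at adjusted p between 0.0837 and 0.128. Which Cd47 transcripts each probe set matches was not tested.

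**Figure D4:**
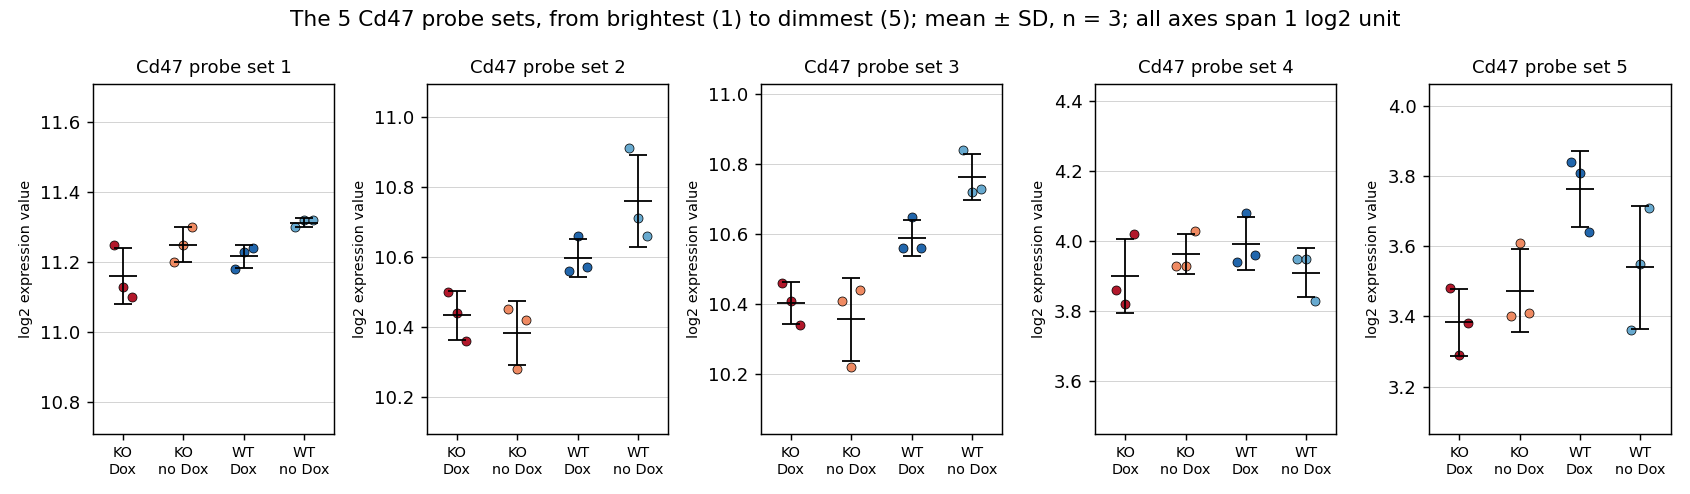
Log2 expression value (y axes, each 1 unit tall) of the 5 Cd47 probe sets from the brightest to the dimmest by group; points are tumours and bars the mean ± SD (n = 3). The second and the third are lower in APC-KO tumours, most clearly without Dox, while the brightest moves little and the 2 dimmest lie under the floor.

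Sirpa, the macrophage receptor for CD47, had no probe set that passed. Its brightest had 9.65, 9.69 and 9.67 in APC-KO tumours with Dox, against 9.48, 9.57 and 9.46 in APC-WT tumours with Dox. Those groups did not overlap, and the difference of 0.17 ± 0.09 (SE) did not pass (limma adjusted p = 0.322). Without Dox it had 9.79, 9.50 and 9.62 in APC-KO tumours, against 9.93, 9.61 and 9.52 in APC-WT tumours, which overlapped. The other Sirpa probe sets differed between genotypes by -0.10 to 0.01. Of 15 member probe sets in all, 8 did not overlap and were lower in APC-KO tumours without Dox, against 12.1% of all probe sets. With Dox 5 did not overlap and were lower and 1, of Sirpa, was higher, against 15.8% and 13.8%.

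Dox left no member past the threshold in either genotype. In APC-KO tumours 0 of 15 passed in limma and 3 had an unadjusted p under 0.05, against 0.318% and 9.38% of all probe sets. In APC-WT tumours 0 of 15 passed and 9 had an unadjusted p under 0.05, against 0.0799% and 9.9% of all probe sets. The median difference of the 15 was -0.079 in APC-KO and -0.182 in APC-WT tumours, against 0 and 0.013 over all probe sets. Groups that did not overlap, with Dox lower, numbered 2 of 15 in APC-KO tumours (7.64% of all probe sets) and 5 of 15 in APC-WT tumours (6.16%).

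Pdcd1 came nearest to the threshold. In APC-WT tumours it had 5.45, 5.84 and 5.70 with Dox, against 6.80, 6.38 and 6.57 with no Dox, and the groups did not overlap. The difference was -0.92 ± 0.17 (SE), with a 95% interval of -1.28 to -0.56 and a limma adjusted p of 0.0529. It passed with array weights (-0.76, adjusted p = 0.0114), with only the groups compared (0.0448), and without APC-KO Dox tumour 1 (0.0424) or 3 (0.0493), APC-KO no Dox tumour 2 (0.0462) or APC-WT no Dox tumour 3 (0.0337). In APC-KO tumours Pdcd1 had 5.13, 4.52 and 4.41 with Dox, against 5.32, 5.44 and 5.06 with no Dox, and the groups overlapped through APC-KO Dox tumour 1. That difference of -0.59 ± 0.17 (SE) did not pass (limma adjusted p = 0.209), and without that tumour it was -0.81 with an adjusted p of 0.0249.

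Pdcd1 minus the T cell marker mean was lower with Dox in both genotypes and did not overlap, by -0.43 in APC-KO and -0.62 in APC-WT tumours. Of the 10 T cell markers, none passed with Dox in either genotype, with medians of -0.15 in APC-KO and -0.36 in APC-WT tumours. The Gapdh control difference did not overlap between APC-WT Dox (-0.188 to -0.158) and APC-WT no Dox tumours (-0.116 to -0.092). The 18S control did not overlap between APC-KO Dox (8.959 to 9.237) and APC-KO no Dox tumours (9.475 to 9.758). Their part was not tested.

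The other members moved less with Dox than Pdcd1 did. Cd274 differed by -0.49 ± 0.16 (SE) in APC-KO tumours, where the groups did not overlap, and by -0.41 ± 0.16 (SE) in APC-WT tumours, where they did (limma adjusted p = 0.289 and 0.403). Lag3 differed by -0.23 ± 0.11 in APC-KO, with no overlap, and by -0.30 ± 0.11 in APC-WT tumours (SE, limma adjusted p = 0.537 and 0.349). Lgals9 in APC-WT tumours had 10.05, 10.05 and 10.10 with Dox, against 10.37, 10.28 and 10.40 with no Dox. These did not overlap (-0.28 ± 0.10, SE, limma adjusted p = 0.331), and in APC-KO tumours Lgals9 differed by -0.08 ± 0.10 (SE) and overlapped. Havcr2 differed by -0.37 ± 0.13 in APC-KO and -0.32 ± 0.13 in APC-WT tumours, with overlap (SE, limma adjusted p = 0.334 and 0.413). Pdcd1lg2 differed by -0.34 ± 0.15 in APC-WT tumours, with no overlap, and by -0.08 ± 0.15 in APC-KO tumours (SE, limma adjusted p = 0.45 and 0.913).

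An interaction term tested whether the Dox difference varied with genotype, as the Dox difference in APC-KO minus that in APC-WT tumours. No member passed in limma (0 of 15), and 3 had an unadjusted p under 0.05, against 0 of 45037 and 8.81% over all probe sets. Those 3 were Ctla4 (0.37 ± 0.17, SE) and the second and the third Cd47 probe sets (0.21 ± 0.10 and 0.22 ± 0.09). For Pdcd1 the interaction was 0.33 ± 0.24 (SE), with a 95% interval of -0.17 to 0.84, and for Cd274 it was -0.09 ± 0.23 (SE), with a 95% interval of -0.57 to 0.39.

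**Figure D5:**
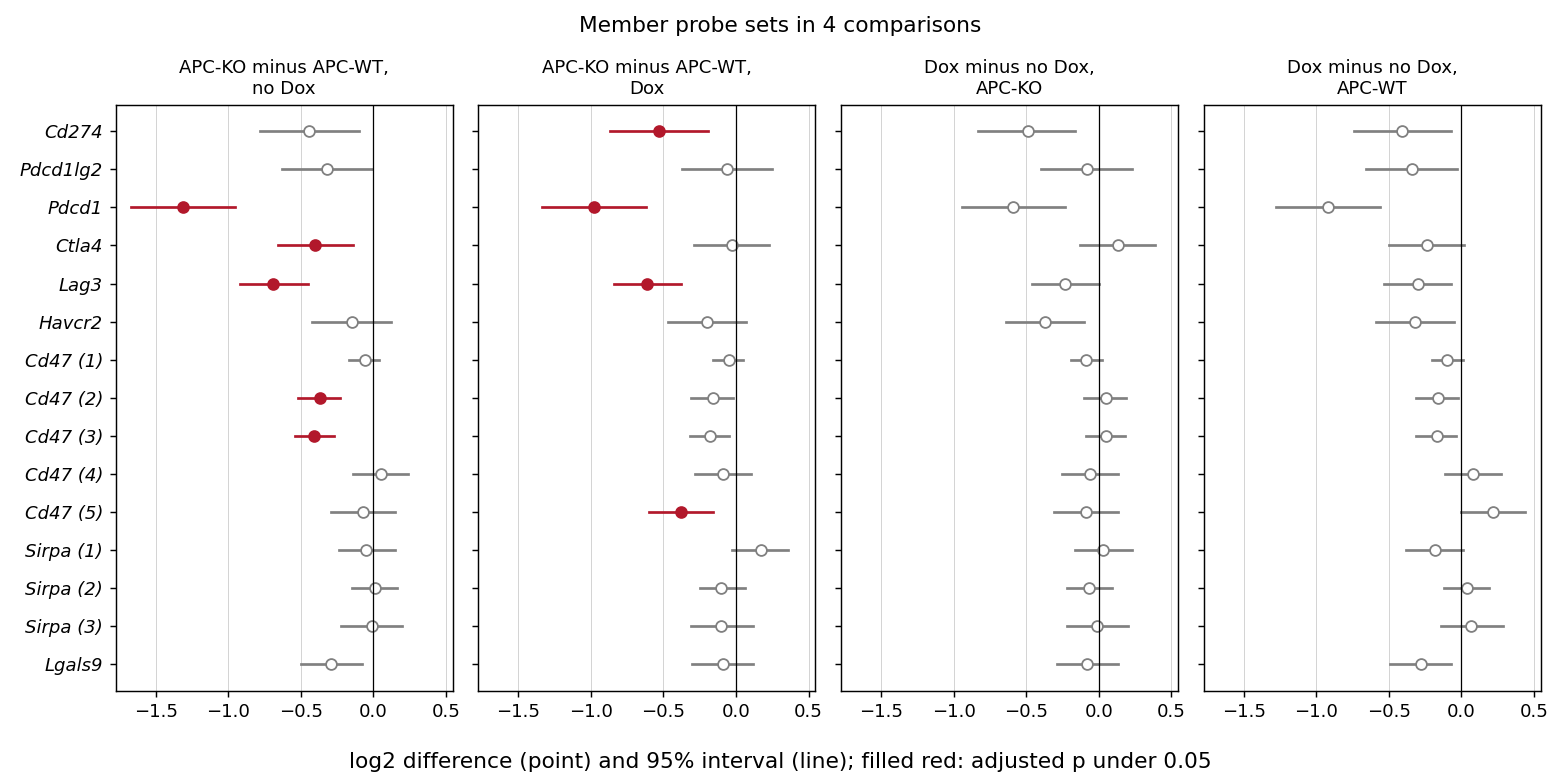
Log2 difference (x axis; points) with its 95% interval (lines) of the 15 member probe sets in 4 comparisons: APC-KO minus APC-WT without and with Dox, and Dox minus no Dox in APC-KO and APC-WT tumours; filled red points passed an adjusted p of 0.05, and numbers in brackets order probe sets of 1 gene from the brightest. The points that passed lie left of 0 in the genotype panels, 5 without Dox and 4 with Dox, and no point passed in the Dox panels.

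Across the 12 arrays the members ran together to different degrees. Pearson r was 0.94 between Pdcd1 and Lag3 and 0.88 between Cd274 and each of them; with the group means removed it was 0.55 for Pdcd1 and Lag3, 0.63 for Cd274 and Pdcd1 and 0.81 for Cd274 and Lag3. Among pairs without Sirpa the lowest r was 0.45, between Pdcd1lg2 and Havcr2, and 0 with the group means removed. Sirpa gave r between -0.02 and 0.57 with the others. The genes most like Lag3 were Gstt1, Apol6 and 9530082P21Rik (r = 0.974, 0.972 and 0.969). Gstt1, a glutathione transferase, fell by 1.46 ± 0.17 without Dox and by 1.41 ± 0.17 with Dox in APC-KO tumours (SE, limma adjusted p = 3.35e-05 and 5.24e-05), a larger difference than that of Lag3. Those most like Havcr2 were Mylip, Cyth1 and Psap (r = 0.944, 0.941 and 0.937), and those most like the brightest Cd47 probe set were Npc2, Hmgn3 and Dtnbp1 (r = 0.970, 0.921 and 0.892). Sirpa ran most like Dusp16, Lcp1 and Txlna (r = 0.924, 0.911 and 0.895), and Lgals9 most like Slfn2, Atp8b4 and F10 (r = 0.935, 0.917 and 0.914). Arrays and group differences are shared by all these points.

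Partners of these receptors were followed on lists of other genes of each axis. The shares of all probe sets that passed, 12.3% without Dox and 9.51% with Dox, are the background for these counts, and each axis list had at most 2 genes that passed in a comparison. Of 13 other genes of the PD-1 and CTLA-4 axis, 2 fell in APC-KO tumours without Dox and none passed with Dox. They were Cd28, the costimulatory receptor that CTLA-4 opposes (-0.69 ± 0.15, SE, limma adjusted p = 0.0062; under the floor on all arrays), and Icos, an inducible costimulator of the same family (-0.59 ± 0.12, SE, limma adjusted p = 0.00457). Icos had 5.64, 5.76 and 5.71 in untreated APC-KO tumours, against 6.31, 6.15 and 6.41 in untreated APC-WT tumours. The ligands Cd80 and Cd86 did not pass, at 0.04 ± 0.12 and -0.18 ± 0.16 (SE) without Dox.

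Of 7 measured genes of the TIGIT and nectin axis, none passed without Dox. With Dox Nectin2, a ligand of that axis, rose by 0.27 ± 0.08 and Cd96, a related receptor, fell by 0.42 ± 0.12 in APC-KO tumours (SE, limma adjusted p = 0.0339 and 0.0299). Of 9 measured partners of LAG-3, TIM-3 and galectin-9, Lgals3, the galectin-3 ligand of LAG-3, fell by 0.24 ± 0.07 and Ptdss1, a phosphatidylserine synthase, by 0.27 ± 0.06 with Dox (SE, limma adjusted p = 0.0443 and 0.0117). Lgals3 also fell with Dox in APC-KO tumours, to 12.33, 12.46 and 12.21, against 12.67, 12.75 and 12.71 with no Dox (-0.38 ± 0.07, SE, limma adjusted p = 0.0305). Of 13 measured genes of the CD47 and SIRPA axis, 1 fell without Dox: Lrp1, a phagocytic receptor (-0.27 ± 0.08, SE, limma adjusted p = 0.0398).

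Costimulators of the TNF receptor family numbered 9 with a probe set, and 6 averaged at or above the floor. Of the 9, 2 passed without Dox and 1 with Dox. Without Dox Tnfrsf18 (GITR) fell by 0.61 ± 0.13 and Tnfrsf4 (OX40) by 0.40 ± 0.10 in APC-KO tumours (SE, limma adjusted p = 0.00412 and 0.0148). With Dox Tnfrsf9 (4-1BB) fell by 0.78 ± 0.17 (SE, limma adjusted p = 0.00719), at 7.97, 7.25 and 7.44 in APC-KO tumours, against 7.95, 8.43 and 8.61 in APC-WT tumours. Of 14 measured regulators of T cell exhaustion and activation, 5 fell without Dox and 2 with Dox, and none rose. Of these 14, 12 averaged at or above the floor. For both lists the background is 12.3% of all probe sets without Dox and 9.51% with Dox. At or above the floor it is 20.4% and 16.2%. The counts of both lists with Dox are near these shares. Tox, a transcription factor of exhausted T cells, fell by 0.59 ± 0.10 and 0.54 ± 0.10 (SE, limma adjusted p = 0.000614 and 0.0016), under the floor on all arrays. Nt5e (CD73), which makes adenosine from AMP, fell by 0.77 ± 0.16 with Dox, and Tbx21 (T-bet) by 0.61 ± 0.13 without Dox (SE, limma adjusted p = 0.00526 and 0.00494). None of these costimulators or regulators, and none of the genes on the interferon-gamma list, passed in either Dox comparison.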

How the data were processed

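RNA of 12 tumours, 3 in each of 4 groups, was measured on 1-colour arrays. The authors deposited a table of log2 values, 1 column per array; MAS5 is named per the submitters' processing notes, while the steps and scaling behind the deposited log2 values are not stated. The values ran between 1.86 and 14.16, with array medians nearly equal, so differences are relative to the bulk of the probe sets. No detection calls were used, and the number of arrays limits the precision. Symbols came from the platform annotation, updated by Entrez number for 34754 probe sets: 34945 had 1 symbol, 932 several and 9160 none, and 64 control probe sets were left out of the tests.

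Groups and replicate numbers came from the labels. A group-means model over all 12 arrays was fitted with limma 3.58.1 (R 4.3.3), with a variance trend and no filter, and was tested on simulated data. The 5 contrasts were tested, 2-sided, with Benjamini-Hochberg adjustment over 45037 probe sets and intervals at 95%. Alternatives were a filter at the floor, no trend, 1 probe set per gene, quantile normalization, array weights, only the groups compared, the replicate number as a block, and each array left out in turn.

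A member is described by its brightest probe set and any other that passed. Of each of 17 lists (161 genes, each by its brightest probe set) up to 4 genes that passed are named, largest difference first, or the 1 of smallest p where none did; Cd4, Cd80, Cd86, Ifngr2 and Jak2 were added after their values were seen. The 3 genes most like a member are named by Pearson r. Members and lists were chosen with earlier results of these data known. Promoter windows are RefSeq's. Plots used matplotlib 3.10.9 in Python 3.11.15.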

Additional observations from a re-analysis of the deposited data

How the results depend on the processing

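Among the alternatives run, no member difference that passed changed its direction. The calls of Pdcd1 and Lag3 were kept in both genotype comparisons in all alternatives that gave them a value (highest adjusted p 0.000774 without Dox and 0.0106 with Dox for Pdcd1, 0.00373 and 0.0147 for Lag3), as were those of the second and the third Cd47 probe sets without Dox (0.0108 and 0.0042). For APC-KO against APC-WT without Dox, 5 member probe sets passed as reported, 3 with the filter at the floor, 1 with 1 probe set per gene, and 4 to 6 with an array left out. With Dox the number was 4 as reported, 2 with the filter, 2 with 1 probe set per gene and 2 to 5 with an array left out. As reported 15 member probe sets were tested. The filter kept 10 of them among 22519 probe sets, and 1 probe set per gene kept 6 member genes. Of those 22519, 5434 passed without Dox and 4414 with Dox. The 2 of 10 members with Dox is close to that share of all probe sets. The filter removes members that lie under the floor, and 1 probe set per gene also removes the second and the third Cd47 probe sets. For Dox in APC-KO no member passed as reported and 0 to 1 with an array left out. For Dox in APC-WT none passed as reported, 1 with array weights, 1 with only the groups compared and 0 to 1 with an array left out, and that 1 was Pdcd1 each time. The interaction stayed at 0 members.

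Same-numbered tumours of different groups did not deviate together (correlation of deviations -0.14 to 0.14 over 18 pairs, median -0.01), and 5 of 12 arrays correlated best with their own number, so the numbers were not taken as pairs. With the replicate block 0 members passed for Dox in APC-KO, 0 for Dox in APC-WT, 4 for genotype without Dox, 3 for genotype with Dox and 0 for the interaction; the 2 calls lost were those of Ctla4 (adjusted p = 0.0636) and Cd274 (0.0676).

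Counts over all probe sets moved more than those of the members for Dox and for the interaction. For Dox in APC-KO 143 passed as reported, 51 without the trend, 60 with 1 probe set per gene and 52 to 204 with an array left out. For Dox in APC-WT 36 passed, 8 with the filter, 0 without the trend, 3 with 1 probe set per gene, 2101 with array weights and 0 to 600 with an array left out. Genotype gave 5518 without Dox and 4284 with Dox, and 5434 and 4414 with the filter, where the member counts moved more. It gave 2753 and 2205 with 1 probe set per gene, and 7453 and 6617 with array weights. With an array left out, 2614 to 4708 passed with Dox. The interaction gave 0, 306 with array weights, 3 with the replicate block and 0 to 196 with an array left out. The causes were not tested. Fitting only the groups compared does not apply to the interaction.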

Other observations

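Markers of other cells that can carry these receptors and ligands were followed on the remaining lists. Between genotypes 12.3% of all probe sets passed without Dox and 9.51% with Dox. Among probe sets at or above the floor these shares were 20.4% and 16.2%. For Dox in APC-KO tumours the share of all probe sets was 0.318%. These shares are the background for the counts that follow. Of 6 measured NK cell markers, 3 fell in APC-KO tumours without Dox and 1 with Dox, and none rose. Prf1, the pore-forming protein perforin of NK and cytotoxic T cells, fell by 0.80 ± 0.18 and 1.00 ± 0.18 (SE, limma adjusted p = 0.00687 and 0.00154). Klrk1 (NKG2D) fell by 0.74 ± 0.19 and Klrd1 (CD94) by 0.62 ± 0.14 without Dox (SE, limma adjusted p = 0.0159 and 0.00859). None of 5 regulatory T cell markers passed in any comparison, and 1 of them averaged at or above the floor. The one of smallest p, Ikzf2 (Helios), had 6.59, 6.88 and 6.70 in APC-WT tumours with Dox, against 7.32, 7.01 and 6.71 with no Dox.

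Of 11 measured macrophage markers, 3 rose in APC-KO tumours without Dox: Cd14 by 0.38 ± 0.09, Mertk by 0.29 ± 0.08 and Csf1r by 0.28 ± 0.06 (SE, limma adjusted p = 0.00949, 0.0314 and 0.00494). With Dox Mertk rose by 0.38 ± 0.08 and Lyz2 fell by 0.37 ± 0.05 (SE, limma adjusted p = 0.00668 and 0.000298), and Cd14 fell by 0.48 ± 0.09 with Dox in APC-KO tumours (SE, limma adjusted p = 0.0298). Of 4 measured neutrophil markers, 3 rose in APC-KO tumours without Dox, 2 fell with Dox, and 2 fell with Dox in APC-KO tumours. S100a9 had 4.78, 5.43 and 4.01 in APC-KO tumours with Dox, against 10.00, 9.51 and 7.61 in APC-KO tumours with no Dox. Of 8 measured dendritic cell markers, 1 rose (Batf3) and 1 fell (Zbtb46) without Dox and 1 rose with Dox (Batf3). Of 4 B cell markers 1 rose in each genotype comparison, Cd79a without Dox and Cd79b with Dox. Of 7 fibroblast markers 1 rose without Dox (Pdgfra) and 3 with Dox (Pdgfra, Col1a1 and Col3a1). Of 5 endothelial markers 2 rose with Dox (Cdh5 and Emcn). Of 7 epithelial markers 1 fell without Dox (Krt8), and 1 rose (Cdh1) and 1 fell (Cdx2) with Dox. No marker of these 5 lists passed in a Dox comparison within a genotype.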
